A study of Homo sapiens with 12 samples.

Results

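Amino acid transporter genes of the ATF4 response were examined at the level of gene totals and of single positions in an AlkAniline-Seq data set of LNCaP-AI prostate cancer cells. The 8 genes were chosen by name as transporters known to be induced with ATF4, with earlier results of these data known. Of the 8, 4 are in the study's own list of changed genes, which was chosen on these libraries. They were found through their Ensembl IDs among 18569 IDs. The 8 genes held 1485 of the 842183 positions listed. LNCaP-AI is a castration-resistant derivative of the LNCaP line, and both groups, controls included, were kept under androgen deprivation. One group carried a stable short hairpin RNA against METTL1 (shMETTL1), the enzyme that places m7G in tRNA and inside mRNA, and the other a scrambled hairpin (shscramble). Each group had 3 replicates, each with an AlkAniline-Seq library and an input library, 12 libraries in all. AlkAniline-Seq cuts RNA chemically at m7G and sequences the ends, so a read marks a single position, whereas the input RNA shows ends that were there without the treatment. The labels do not say whether the replicates are separate cultures, and p-values then measure only the spread between these samples, which may be technical.

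When amino acids are scarce or the endoplasmic reticulum is stressed, the kinases of the integrated stress response slow translation and the transcription factor ATF4 is made. ATF4 binds composite C/EBP-ATF elements and turns on genes for amino acid synthesis, tRNA charging and uptake. Prostate cancer cells take up leucine and glutamine through several of the carriers described here.

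The composite element was searched as TGATGNAA on both strands in RefSeq promoter windows of GRCh38.p14, which run from 250 bases before to 50 after a start site. Windows were found for 7 of the 8 genes, and 5 of their 13 windows held it, each in a different gene. Of all 35116 windows 3.62% held it, and of all genes 4.46% did. Since the genes were chosen as known to be induced with ATF4, this comparison is not independent evidence. The matches are shown because they are the sequence feature these genes were compared on, with the 8 matching bases in capitals and up to 11 bases on each side. SLC3A2 and SLC1A4 carried it in the reverse complement.
SLC3A2, chr11:62881725-62881748, plus strand, from base 37 after the start: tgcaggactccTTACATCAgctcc
SLC1A5, chr19:46784893-46784922, minus strand, -97: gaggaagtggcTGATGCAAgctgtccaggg
SLC1A4, chr2:64989381-64989410, plus strand, -7: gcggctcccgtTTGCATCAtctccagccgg
SLC7A1, chr13:29595663-29595692, minus strand, from base 7 after the start: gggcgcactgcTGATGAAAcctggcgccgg
SLC38A1, chr12:46266502-46266531, minus strand, -4: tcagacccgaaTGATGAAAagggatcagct
No match was in the windows of SLC7A5 and SLC38A2. A match of letters does not show binding, and none of the libraries measured binding.

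The AlkAniline-Seq libraries held 1421551 to 2764417 reads and the input libraries 2783709 to 3258499. The transporters took 0.488% to 0.959% of AlkAniline-Seq reads and 0.748% to 1.97% of input reads. Of the input libraries, shMETTL1 replicate 1 had reads at 311979 positions and shscramble replicate 2 at 72098, and the others at 153839 to 165105. Of the AlkAniline-Seq libraries, that of shscramble replicate 1 stood apart. All 91 transporter positions that were at least 20 reads deep in shscramble replicate 2 also had a read in it, and so did all 55 of replicate 3. Between other pairs of AlkAniline-Seq libraries this share lay between 27.0% and 60.5%. Over all genes the shares were 98.45% and 99.61%, against 29.4% to 50.3% in other pairs. The reason was not tested, and the 3 shscramble AlkAniline-Seq libraries may not be independent, which the p-values assume. Values without shscramble replicate 1 are given beside the gene totals, the shares of coverage and the position tests. METTL1 itself was not analysed here, so the knockdown has no check in the values given. Genes were listed by ID without symbols. Of 11 prostate luminal markers, KLK2 alone could be tied to an ID, and the other markers were not analysed here. It was tied through the study's list of genes changed in these libraries, so its direction is not independent evidence. KLK2 had 654 to 703 CPM (read counts scaled to a common library total, here without TMM) in the shscramble AlkAniline-Seq libraries and 362 to 467 in shMETTL1. Its input values were 851 to 1410 against 365 to 544. The adjusted p from edgeR was 0.72 in AlkAniline-Seq and 0.75 in the input. Its part in the results below was not tested.

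Over the gene, the AlkAniline-Seq reads of all 8 transporters had a log2 fold change above 0 in shMETTL1 against shscramble, with a median of 0.71, while 52.9% of the 11097 genes tested were above 0 and their median was 0.07. Since the genes were chosen with earlier results of these data known, this shared direction is not independent evidence. All 8 passed the filter on low counts in each test. No transporter passed the adjusted p threshold of 0.05 in edgeR's quasi-likelihood test, nor did more than 1 gene in all (0.00901%). At an unadjusted p under 0.05, 1 transporter was higher, SLC3A2, beside 3.84% of all genes. Without shscramble replicate 1 all 8 were still above 0, with a median of 0.64 and values of 0.21 for SLC7A5, 0.44 for SLC7A11, 0.33 for SLC1A5, 1.28 for SLC7A1, 0.82 for SLC38A1 and 0.51 for SLC38A2, and without shMETTL1 replicate 3, 7 were. In bulk RNA, fewer cells of a kind and less RNA per cell cannot be told apart.

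In the input, 5 of the 8 were above 0, with a median of 0.11, against 48.5% of 11740 genes and a median of -0.04. None was called by edgeR, and 0 of all genes were (0%, and 35 genes by DESeq2), and none had an unadjusted p under 0.05, which 6.26% of genes had. Leaving out 1 library gave 3 to 7 above 0. As AlkAniline-Seq over input, tested as an interaction over the 12 libraries, 7 of the 8 were above 0 with a median of 0.61, beside 56.2% of 12877 genes and a median of 0.24. None was called (0.00777% of genes were), and none had an unadjusted p under 0.05, against 8.35% of genes. Without shscramble replicate 1, 6 of the 8 were above 0 over the input and the median was 0.78. The values over the input also depended on scaling. With library size alone they ran from -0.86 for SLC7A11 to 0.73 for SLC38A1, and SLC1A5 was at -0.09. These comparisons share libraries.

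**Figure D1:**
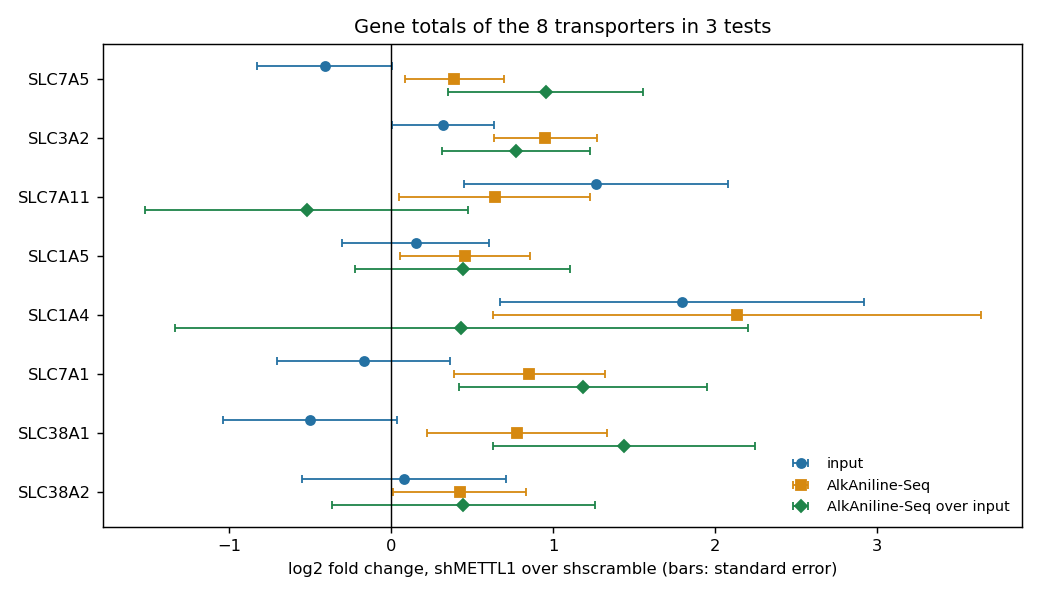
Log2 fold change of shMETTL1 over shscramble (horizontal axis) for each of the 8 transporters (vertical axis) in input, in AlkAniline-Seq and in AlkAniline-Seq over input, with bars of 1 standard error from edgeR. All 8 AlkAniline-Seq points lie above 0, 5 of the 8 input points do, and the widest bars are those of SLC1A4.

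SLC7A5 (ENSG00000103257), LAT1, is the light chain that exchanges leucine and other large neutral amino acids for glutamine. Its AlkAniline-Seq level was 3692, 5891 and 5271 CPM after TMM scaling, as all CPM from here on, in shscramble replicates 1 to 3 and 2816, 8476 and 8162 in shMETTL1. In shMETTL1, replicates 2 and 3 were above every shscramble library and replicate 1 was below every one. The log2 fold change was 0.39 (SE 0.31, adjusted p = 0.89 from edgeR), and it ran from 0.16 without shMETTL1 replicate 2 to 0.76 (adjusted p = 0.44 from edgeR) without shMETTL1 replicate 1.
In the input SLC7A5 had 7502, 28072 and 11597 CPM against 5048, 16445 and 13992. The groups overlapped, with shscramble replicate 2 highest and shMETTL1 replicate 1 lowest. The input log2 fold change was -0.41 (SE 0.42), and over the input it was 0.95 (SE 0.60, adjusted p = 0.71 from edgeR). With no filter on low counts the latter was 0.81 with an adjusted p = 0.017 from edgeR, with library size alone it was 0.25 (adjusted p = 0.97) and without shscramble replicate 2 it was 0.31 (adjusted p = 0.96).

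Within a group, the level of SLC7A5 was compared between AlkAniline-Seq and input. In shscramble its log2 fold change of AlkAniline-Seq against input was -1.92 (SE 0.44, adjusted p = 0.043 from edgeR), and it was the 1 transporter called, among 0.544% of genes called lower. The call was lost without any 1 of the shscramble replicates, at -1.97 (adjusted p = 0.11 from edgeR) without replicate 1, at -1.29 (adjusted p = 0.42 from edgeR) without replicate 2 and at -2.18 (adjusted p = 0.11 from edgeR) without replicate 3. In shMETTL1 it was -0.97 (SE 0.43, adjusted p = 0.55 from edgeR), where no transporter was called and 0.21% of genes were. These fits did not pair each library with its own input. With a replicate block, added after seeing the data, SLC7A5 was called lower in both groups. The adjusted p from edgeR was then 2.8e-07 in shscramble and 0.002 in shMETTL1. The difference between the groups is the interaction above, which did not pass.

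A single position gave most reads of SLC7A5, and it led both assays. In AlkAniline-Seq it had 5159, 12100 and 5650 reads in shscramble and 4585, 16284 and 14915 in shMETTL1. That was 76.8%, 77.0% and 76.1% of the gene's reads against 63.5%, 78.0% and 78.0%, and the 95% Wilson interval of the lowest, which covers counting error only, was 62.4% to 64.6%. In shMETTL1, replicate 1 was low and replicates 2 and 3 were above the shscramble libraries.
In the input the same position held 88.5%, 90.1% and 88.0% of the gene's reads against 78.7%, 85.7% and 86.0%. Positions of the gene with an input read numbered 97, 64 and 103 against 214, 167 and 144, and the part of this in the share was not tested. For the share at the lead position, every shMETTL1 input library was below every shscramble one. This held for 4.78% of the 11433 genes with reads in all 6 input libraries and 15 or more in sum, each gene taken at its own position with the most input reads. Of the reads covering the position, 81.9%, 77.4% and 75.3% started there in shscramble AlkAniline-Seq and 63.4%, 69.9% and 80.9% in shMETTL1.
In the input 90.8% to 91.5% and 88.4% to 93.2% of the covering reads started there, so each AlkAniline-Seq library was below its input. The position's log2 fold change was 0.59 (SE 0.35, adjusted p = 0.88 from edgeR). Without the lead position, the gene total of SLC7A5 was at 0.63 (adjusted p = 0.72 from edgeR).

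SLC3A2 (ENSG00000168003), 4F2hc or CD98, is the heavy chain that carries SLC7A5 and SLC7A11 to the membrane. Its AlkAniline-Seq level was 299, 541 and 371 CPM in shscramble and 898, 852 and 592 in shMETTL1. The groups did not overlap and shMETTL1 was above, as for 1 of the 8 transporters and 7.1% of all genes. The mean was 781 ± 165 CPM (SD, n = 3) against 404 ± 124 (SD, n = 3). The log2 fold change was 0.95 (SE 0.32), with an unadjusted p of 0.0083 and an adjusted p of 0.53 from edgeR, and 0.77 (adjusted p = 0.97 from edgeR) without shscramble replicate 1.
In the input SLC3A2 had 452, 572 and 583 CPM against 606, 785 and 615. These groups did not overlap either, as for 3 of the 8 transporters and 7.64% of all genes. The input log2 fold change was 0.32 (SE 0.31, adjusted p = 0.90 from edgeR), and over the input it was 0.77 (SE 0.46, adjusted p = 0.69 from edgeR). Without the lead position of each assay, which differ in this gene, the input value was -0.44 and that over the input 1.48. With library size alone the latter was 0.24.

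SLC7A11 (ENSG00000151012), xCT, takes in cystine in exchange for glutamate and feeds glutathione synthesis. It had 58.8, 72.0 and 114 CPM in shscramble AlkAniline-Seq libraries and 95.2, 163 and 123 in shMETTL1, and the groups overlapped between shscramble replicate 3 and shMETTL1 replicate 1. Input levels were 42.8, 6.39 and 61.4 CPM against 72.4, 81.5 and 112, with every shMETTL1 library above. The log2 fold changes were 0.64 (SE 0.59) in AlkAniline-Seq, 1.26 (SE 0.82) in the input and -0.52 (SE 1.0) over the input. The adjusted p from edgeR was 0.84 to 0.92 in these tests. The input value was 0.77 without shscramble replicate 2, whose level was the lowest, at 13 reads, and the value over the input was then -0.11. Without shscramble replicate 1 the latter was -0.90. SLC7A11 was thus the 1 transporter whose value over the input was below 0.

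SLC1A5 (ENSG00000105281), ASCT2, exchanges glutamine and other neutral amino acids. It had 216, 309 and 263 CPM in shscramble AlkAniline-Seq and 279, 219 and 582 in shMETTL1, where replicate 3 was highest and the other two lay within the shscramble range. Its input levels were 174, 511 and 562 CPM against 233, 536 and 616, with overlapping groups. The log2 fold changes were 0.46 (SE 0.40) in AlkAniline-Seq, 0.15 (SE 0.46) in the input and 0.44 (SE 0.67) over the input. Without shMETTL1 replicate 3 the AlkAniline-Seq value was -0.06, without shMETTL1 replicate 2 it was 0.73, and the value over the input ran from 0.19 to 0.83 as 1 replicate was left out.
SLC1A4 (ENSG00000115902), ASCT1, exchanges alanine, serine and cysteine. It had few reads, with 20.9, 3.0 and 3.55 CPM in shscramble AlkAniline-Seq and 79.2, 2.44 and 39.3 in shMETTL1, where replicate 2 was lowest of all. In the input it had 24.4, 0.983 and 12.8 CPM against 36.9, 43.7 and 52.9, with every shMETTL1 library above. The log2 fold changes were 2.13 (SE 1.51) in AlkAniline-Seq, 1.80 (SE 1.13) in the input and 0.43 (SE 1.77) over the input. The AlkAniline-Seq value was 3.60 without shscramble replicate 1 and 1.23 without shMETTL1 replicate 1, so single libraries set its size, and the value over the input ran from -0.66 to 0.99 as 1 replicate was left out.

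SLC7A1 (ENSG00000139514), CAT1, carries arginine and lysine. It had 236, 129 and 98.7 CPM in shscramble AlkAniline-Seq and 181, 415 and 242 in shMETTL1, where replicate 1 lay within the shscramble range and the other two above it. Its input had 128, 282 and 71.6 CPM against 137, 109 and 181, all shMETTL1 libraries lying within the shscramble range. The log2 fold changes were 0.85 (SE 0.46) in AlkAniline-Seq, -0.17 (SE 0.53) in the input and 1.18 (SE 0.76) over the input. Without shMETTL1 replicate 2 the first was 0.47. The value over the input was 0.32 without shscramble replicate 2, 0.63 without shMETTL1 replicate 2, 1.65 without shscramble replicate 1 and 0.43 with library size alone.
SLC38A1 (ENSG00000111371), SNAT1, takes up glutamine with sodium. It had 103, 130 and 54.7 CPM in shscramble AlkAniline-Seq and 147, 112 and 235 in shMETTL1. In the input it had 106, 297 and 100 CPM against 92.2, 102 and 161. The AlkAniline-Seq groups overlapped, since shMETTL1 replicate 2 lay below shscramble replicate 2, and in the input shscramble replicate 2 was the highest. The log2 fold changes were 0.78 (SE 0.55), -0.50 (SE 0.54) and 1.44 (SE 0.81) in AlkAniline-Seq, in the input and over the input. The AlkAniline-Seq value was 0.45 without shMETTL1 replicate 3. Without the lead position of each assay, which differ in this gene, the value over the input was 0.07 (adjusted p = 0.99 from edgeR). The value was 0.95 without shscramble replicate 2 and 0.73 with library size alone.
SLC38A2 (ENSG00000134294), SNAT2, is the System A carrier that adapts to amino acid shortage. It had 207, 173 and 169 CPM in shscramble AlkAniline-Seq and 285, 291 and 158 in shMETTL1, where replicate 3 was below every shscramble library. In the input it had 264, 28.5 and 142 CPM against 106, 127 and 226, within the shscramble range. The log2 fold changes were 0.42 (SE 0.41) in AlkAniline-Seq, 0.08 (SE 0.63) in the input and 0.44 (SE 0.81) over the input. Without shMETTL1 replicate 3 the first was 0.67, and the value over the input ran from -0.29, without shscramble replicate 1, to 1.10. For SLC1A5, SLC1A4, SLC7A1, SLC38A1 and SLC38A2 the adjusted p from edgeR lay between 0.67 and 0.99 in these tests.

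**Figure D2:**
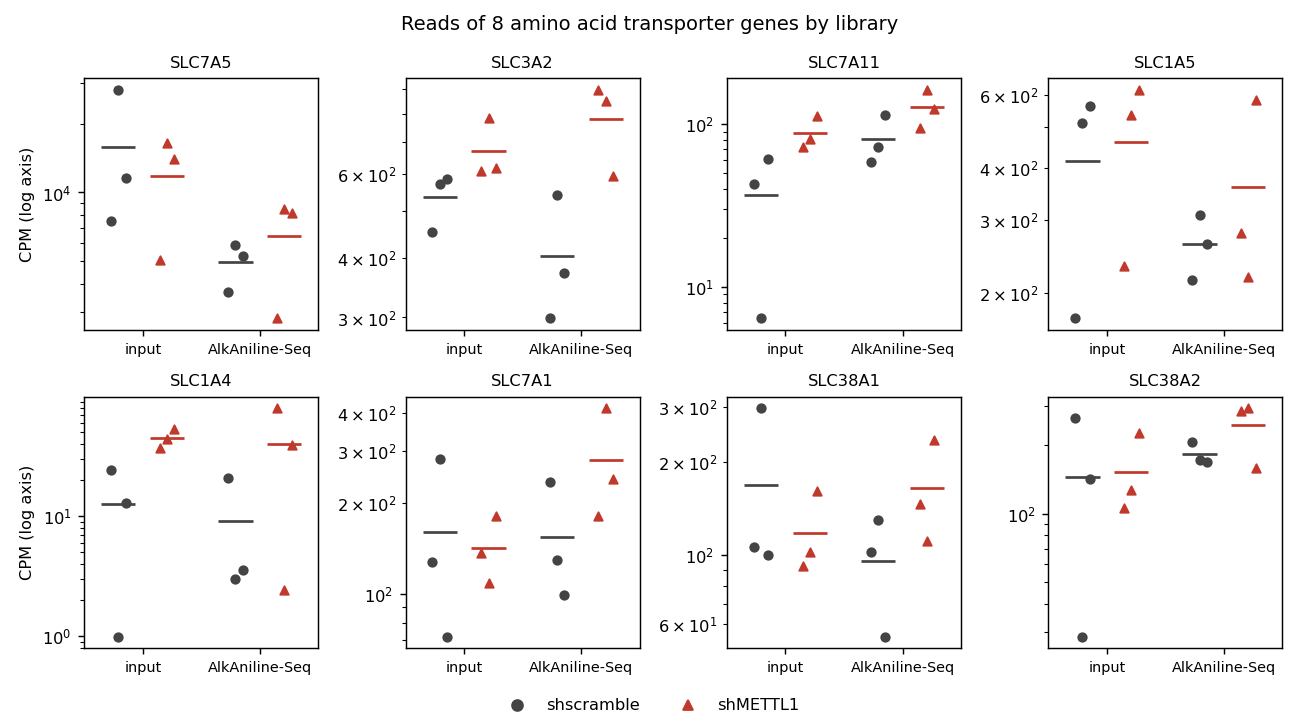
CPM after TMM scaling (vertical axis, log scale, its range differing between panels) of each transporter in the input and AlkAniline-Seq libraries (horizontal axis), 3 replicates per group; grey circles are shscramble, red triangles shMETTL1 and lines the means. SLC3A2 is the 1 gene whose groups do not overlap in AlkAniline-Seq, and SLC3A2, SLC7A11 and SLC1A4 are those whose groups do not overlap in the input.

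The share of a gene's coverage made up by reads that start at the listed positions does not scale with the level of its RNA. For SLC7A5 this share was 8.52%, 8.48% and 8.40% in shscramble AlkAniline-Seq and 6.75%, 6.70% and 8.35% in shMETTL1. Every shMETTL1 library was below every shscramble library, as for 6.81% of the 12020 genes with reads enough, and shMETTL1 replicate 3 was lower by less than 0.1 percentage points. The mean was 8.47% ± 0.06 (SD, n = 3) against 7.27% ± 0.94 (SD, n = 3), an exact two-sided permutation test p = 0.1, the smallest that 3 against 3 allow, and 0.8 after adjustment over the 8 genes. Without the lead position the difference was -0.0801 percentage points. As 1 replicate was left out it ran from -1.74, without shMETTL1 replicate 3, to -0.918, without shMETTL1 replicate 2, and it was -1.17 without shscramble replicate 1.
In the input the share of SLC7A5 was 8.95% ± 0.34 (SD, n = 3) against 9.12% ± 0.30 (SD, n = 3). For the other transporters the exact permutation p in either assay was 0.2 to 1. The share was higher in shMETTL1 for 5 of the 8 in AlkAniline-Seq and for 5 in the input. SLC1A4 varied most, from 2.19% to 30.6% over the AlkAniline-Seq libraries.

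**Figure D3:**
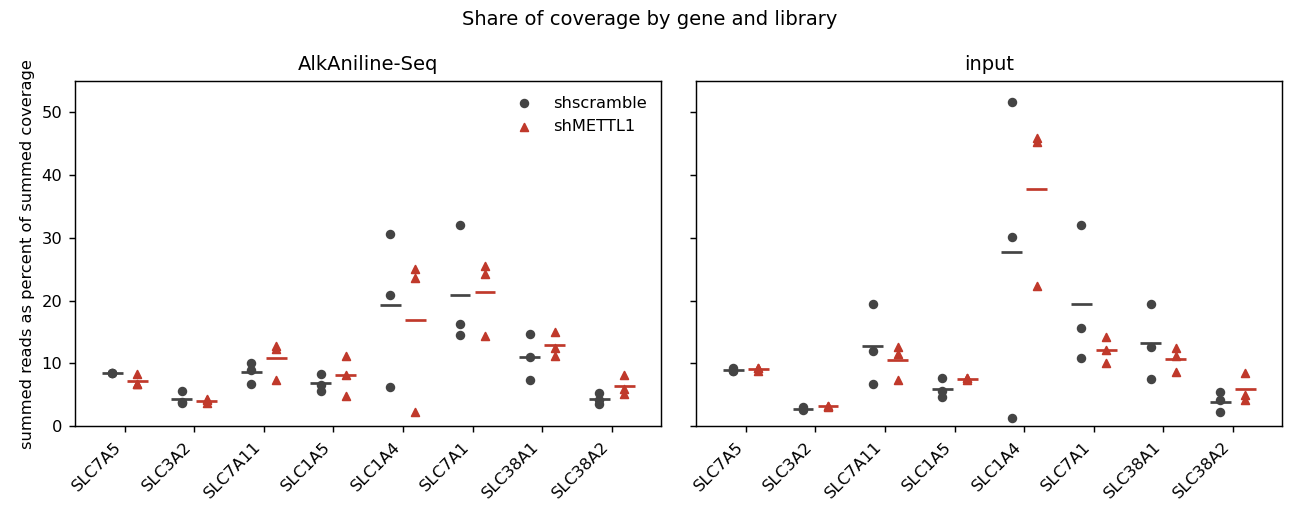
Summed reads as a percent of summed coverage (vertical axis) of each transporter (horizontal axis) in AlkAniline-Seq (left) and input (right); points are libraries, 3 per group, and lines are means. The SLC7A5 points of shscramble lie together near 8.47% and those of shMETTL1 lie below them, while the SLC1A4 points spread widely within each group.

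Outside SLC7A5, the position with the most AlkAniline-Seq reads of a gene was mostly filled by 1 or 2 libraries. For SLC7A11 it had 201 reads in shMETTL1 replicate 2 and 1, 0, 0, 0 and 0 in the others, beside 66 input reads in that replicate. For SLC7A1 it had 219 in shMETTL1 replicate 2 and at most 3 elsewhere, and for SLC38A2 300 in shMETTL1 replicate 2 and at most 7 elsewhere. Nearly all reads of each of these positions thus came from a single library.
SLC1A4 had 80 reads in shMETTL1 replicate 1 and at most 1 elsewhere, and SLC38A1 had 172 in shMETTL1 replicate 3, 35 in replicate 1 and at most 5 elsewhere. The lead position of SLC3A2 had 40, 164 and 84 reads, and in shMETTL1 1, 1 and 149. SLC1A5 was read in every library, with 103, 173 and 61 against 64, 191 and 323, and its position led both assays. The input had such positions too, since for SLC38A1 589 reads, 97.4% of the gene's reads in shscramble input replicate 2, came from 1 position with at most 39 elsewhere.

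**Figure D4:**
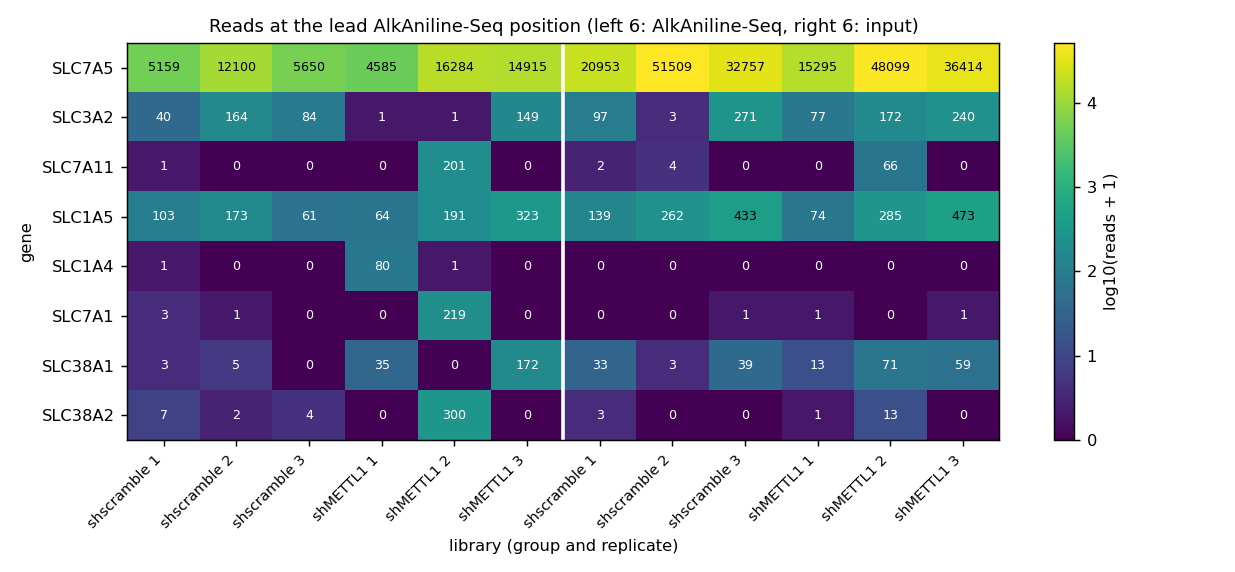
Reads at the position with the most AlkAniline-Seq reads of each transporter (vertical axis) in every library (horizontal axis), printed in the cells and coloured by log10 of reads plus 1. SLC7A5 and SLC1A5 have 61 or more reads in all 12 libraries, and SLC7A11, SLC1A4, SLC7A1 and SLC38A2 have nearly all their AlkAniline-Seq reads in 1 library.

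AlkAniline-Seq reads were found at 765 transporter positions, 51.4% of them in 1 library only, against 62.9% over all genes, and 28 (3.66%, against 1.9%) in all 6. Positions read in all shscramble and no shMETTL1 libraries numbered 10 (1.31%, against 1.08%), and the reverse 4 (0.523%, against 0.235%). Leaving out shscramble replicate 1, 15 (2.13%, against 1.55%) were read in both remaining shscramble and no shMETTL1 libraries, and 8 (1.14%, against 0.475%) the reverse. In the input, over all 6 libraries, these were 1 (0.0804%, against 0.121%) and 16 (1.29%, against 0.676%).
Low counts left 40 transporter positions to test, 21 in SLC7A5, 12 in SLC3A2, 5 in SLC1A5 and 1 each in SLC7A11 and SLC7A1, and 25 of the 40 were above 0, beside 50.7% of all positions tested. None was called by edgeR, nor was any of all 13973 positions (0%), while DESeq2 called 713 of all positions. At an unadjusted p under 0.05, 1 was higher and 1 lower, while 1.88% of all positions were higher and 6.32% lower. The count of calls depended on single libraries. Without shscramble replicate 3, 18 of the 91 transporter positions then tested were called, 2 of them higher, a share of 19.8% against 19% (5644) of all 29677 positions. Without shscramble replicate 1, 0 of 66 were called, and without each of the other libraries 0 or 1.
The higher position was in SLC7A5, with 47, 70 and 129 reads in shscramble and 188, 545 and 485 in shMETTL1, at a log2 fold change of 2.05 (SE 0.80, adjusted p = 0.42 from edgeR). Its unscaled reads did not overlap between the groups, but the libraries differ in depth. The nearest were 129 reads in shscramble replicate 3, of 1421551, and 188 in shMETTL1 replicate 1, of 2512434. As shares of those totals the groups overlapped. Its input reads were 131, 31 and 213 against 130, 418 and 253. The lower position was in SLC7A11, with 8, 23 and 44 reads against 1, 0 and 0, at -6.02 (SE 2.19, adjusted p = 0.36 from edgeR). It had input reads of 0, 0 and 0 against 1, 2 and 25, and it ran against the total of its gene.

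The 4 transporters in the study's list of genes changed in both m7G and mRNA could each be tied to 1 position through the fold given there, and the position was of the transporter's own ID in all 4. Since that list was chosen on these libraries, the reads are a description. SLC7A11 was tied to the position just given. SLC7A5 was tied to one with 21, 64 and 48 reads against 3, 2 and 0, and the same position had 16, 2 and 44 input reads against 65, 44 and 42. SLC3A2 was tied to one with 2, 2 and 17 reads against 0, 0 and 0, and SLC1A5 to one with 2, 3 and 9 against 0, 0 and 0. The AlkAniline-Seq coverage was 83, 274 and 66 against 40, 2 and 71 for SLC3A2. For SLC1A5 it was 23, 14 and 68 against 1, 0 and 10. For SLC7A11 it was 18, 23 and 110 against 70, 0 and 73, and for SLC7A5 74, 80 and 54 against 71, 500 and 97. Some of the 0 reads in shMETTL1 thus fell where coverage was low or 0. All 4 positions had more AlkAniline-Seq reads in shscramble, whereas the AlkAniline-Seq totals of these 4 genes had log2 fold changes above 0.

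Of 39 other ATF4 targets and regulators, 7 could be tied to an ID in the same way, so these too come from the study's own selection in these libraries and are not independent evidence of direction. In AlkAniline-Seq 7 of 7 were above 0 (median 0.76), in the input 6 of 7 (median 1.09) and over the input 3 of 7 (median -0.22), and none was called. The glycyl-tRNA synthetase GARS was at 1.29 in AlkAniline-Seq and 0.84 in the input, and the tryptophanyl-tRNA synthetase WARS at 1.03 and 1.09. PCK2, which makes phosphoenolpyruvate in mitochondria, was at 0.71 and -0.56. In the input the smallest p were those of PSAT1 of serine synthesis, at 1.72, and the seryl-tRNA synthetase SARS, at 1.11, both with adjusted p of 0.75 to 0.77 from edgeR.

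Log2 CPM was compared between genes over the 6 input libraries, which share depth and scaling. Of 11739 genes, those most like SLC7A5 were ENSG00000140526 and ENSG00000148396 (Pearson's r 0.99 each). Only 117 of the 11739 had a name, as a transporter here or through the study's list. Among these JTB, FAM73B and SIRT6 came first (0.89, 0.86 and 0.85), at ranks 143, 237 and 258 of all. The genes most like SLC3A2 were ENSG00000154001 and ENSG00000054392 (0.99 and 0.98). Its first named genes were ROM1, WARS and CCDC25 (0.90, 0.86 and 0.84), at ranks 35, 75 and 98. Among the 28 pairs of transporters r ran from -0.77 to 0.96 in the input, highest for SLC7A11 with SLC1A4, and the heavy chain SLC3A2 and its partner SLC7A5 were at 0.32. In AlkAniline-Seq the pairs ran from -0.58 to 0.70.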

How the data were processed

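AlkAniline-Seq and input libraries of 3 shMETTL1 and 3 shscramble replicates were used. The authors deposited, for each position, a count of reads, the coverage, the fraction of the coverage that the count makes up, and the fold ratio of this fraction to that of the input. According to the submitters' processing notes, Bowtie2 2.2.4, cutadapt 1.9.1, bedtools 2.24 and the hg19 build were used. Annotation and read filters were not given in the sources used here. On all positions, the fraction was checked to be count over coverage, and the fold was used only to tie names to positions (relative tolerance 2e-08). This tied 115 of the 238 genes that the study lists to 1 position.

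Counts were summed per Ensembl ID and tested over all IDs with edgeR 4.0.16 in R 4.3.3 (TMM, quasi-likelihood, minimum count 10, minimum total 15, Benjamini-Hochberg, adjusted p under 0.05). DESeq2 1.42.0, the methods' t-test (pseudocount 1) and other filters were alternatives. The share of coverage was compared by exact permutation in Python with scipy 1.17.1. Tables and plots used pandas 2.3.3, numpy 2.4.6 and matplotlib 3.10.9. Scripts were tested on simulated data. Named were all 8 transporters, their lead positions, and positions with an unadjusted p under 0.05. Members and lists were chosen with earlier results of these data known. Tying names by value, the block and left-out libraries for AlkAniline-Seq against input, and the presence of reads without shscramble replicate 1 were added after seeing the data. Other amino acid transporters and markers of other cell types were not analysed here, since none could be tied.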

Additional observations from a re-analysis of the deposited data

How the results depend on the processing

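Each AlkAniline-Seq library has the input of the same replicate as its own input, whereas samples of the 2 groups share only a number. The main fits did not use either pairing. Deviations from the group mean of same-numbered libraries had correlations of -0.03 to 0.05 between groups and -0.0023 to 0.032 between AlkAniline-Seq and input. Taken over all genes, such correlations showed no pairing, but they do not speak for single genes. Nor can they remove the pairing of a library with its input. For SLC7A5 over the input the SE was 0.60 without a replicate block and 0.24 with it. With a replicate block the genes called numbered 3 in AlkAniline-Seq (1 without), 2 in the input (0 without) and 69 for AlkAniline-Seq against input in shMETTL1 (27 without), and positions called numbered 6 (0 without). SLC7A5 against input was then called in both groups, at -1.69 in shscramble (adjusted p = 2.8e-07 from edgeR) and -0.95 in shMETTL1 (adjusted p = 0.002 from edgeR). Its value over the input was then 0.74 (SE 0.24), with an unadjusted p of 0.0039 and an adjusted p of 0.93 from edgeR. The block turned SLC7A1 in the input to 0.027 and SLC1A4 over the input to -0.57.

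With DESeq2 the counts were 178, 35 and 95 genes in AlkAniline-Seq, in the input and over the input, and 713 positions, and SLC1A5 in the input was -0.12. Without a filter they were 19, 95 and 31. Genes called in AlkAniline-Seq were 2 with library size alone, 2 at a minimum count of 50, 0 without the lead position and 0 by the methods' t-test; over the input 0 were called without the lead position, and positions read in all 6 libraries gave 1. Library size alone turned SLC7A5 and SLC7A1 in the input to 0.015 and 0.29 and SLC1A5 over the input to -0.091, and the methods' t-test turned SLC7A1 in the input to 0.021. Without the lead position the input values were -0.44 for SLC3A2, -0.36 for SLC1A5, 0.57 for SLC38A1 and -0.10 for SLC38A2. The lead position left out was that of each assay, so over the input it could differ between AlkAniline-Seq and input. No transporter was called under any alternative of the AlkAniline-Seq or input tests. The cause of these changes was not tested.

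Leaving out 1 replicate gave 0 to 3 genes called in AlkAniline-Seq, 0 to 1 over the input, 17 to 75 against input in shscramble, 1 to 82 in shMETTL1 and 3 to 5644 positions. Transporters that changed sign were, in AlkAniline-Seq, SLC1A5 (-0.057 to 0.73). In the input they were SLC1A5 (-0.24 to 0.46), SLC38A1 (-0.80 to 0.20), SLC38A2 (-0.41 to 0.82), SLC7A1 (-0.54 to 0.52) and SLC7A5 (-0.78 to 0.31), and over the input SLC1A4 (-0.66 to 0.99) and SLC38A2 (-0.29 to 1.10). Against input they were SLC38A2 (-0.30 to 0.86) and SLC7A1 (-0.78 to 0.56) in shscramble, and SLC1A4 (-1.34 to 0.31) and SLC3A2 (-0.072 to 0.25) in shMETTL1.

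Differences in percent of coverage changed sign in 12 of 64 alternative values in AlkAniline-Seq and 5 of 64 in the input. Without the lead position they were, in percentage points, 0.0529 for SLC3A2, -0.894 for SLC7A1 and -0.0056 for SLC38A1 in AlkAniline-Seq and 3.61 for SLC38A1 in the input. At a coverage of 10 or more they were 4.90 for SLC1A4 in AlkAniline-Seq and 2.26 for SLC7A11 in the input. Leaving out 1 replicate gave -8.81 to 5.05 for SLC1A4, -0.321 to 2.91 for SLC1A5, -0.628 to 0.334 for SLC3A2 and -2.80 to 5.99 for SLC7A1 in AlkAniline-Seq. In the input it gave -3.09 to 22.1 for SLC1A4, -5.33 to 0.611 for SLC38A1 and -5.23 to 1.13 for SLC7A11. The difference of SLC7A5 in AlkAniline-Seq was -0.0801 without the lead position and -1.18 at a coverage of 10 or more, and in the input it was 0.539 without the lead position. SLC1A4, with 2 to 203 reads a library, is the transporter most limited by depth.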
